A study of Mus musculus with 4 samples.

Results

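Autophagy delivers cytoplasm, organelles and protein aggregates to the lysosome in a membrane sac that is built on demand. A kinase complex and a lipid kinase start the sac, a lipid shuttle feeds its membrane, and enzymes related to those of ubiquitin tagging attach small ATG8 proteins to it, which cargo receptors then grip. In monocytes and macrophages the pathway is known for clearing damaged mitochondria, for restraining inflammasome activity and for supplying material during differentiation. Described here are 40 genes of this machinery, chosen by symbol from a list, among 31017 gene symbols counted per library. All 40 were present, each matched exactly 1 gene in GENCODE M21, and all 40 passed the filter on low counts, as did 12035 genes in the whole table.

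The libraries were made from monocytes sorted by flow cytometry out of bone marrow, 2 from mice aged 18 months (aged) and 2 from mice aged 3 months (young). Both ages were labelled wild type and C57BL/6, with atherosclerosis as the disease tag. No treatment is given, and the labels do not say whether the mice carried plaques, or whether the libraries of an age came from separate animals or pools. The p-values therefore rest on library-to-library spread, part or all of which may be technical.

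Library totals ran from 21837261 to 24918091 counts in aged and from 20159129 to 34278754 in young. A count of 0 allows up to 3 counts, or 0.120 to 0.138 CPM in aged and 0.0868 to 0.151 CPM in young (CPM is the count scaled to the TMM-adjusted library size). These floors cover counting error only. The sorted cells were described with marker lists, which do not measure purity. All 10 monocyte markers were detected, 2 of them higher (Csf1r, Spi1) and 1 lower (Mpeg1) in aged. Their summed levels were 42054 to 42763 CPM in aged and 39753 to 42051 CPM in young. Lyz2 alone made up most of that sum, with means of 34770 CPM in aged and 33970 CPM in young. All 12 neutrophil genes were detected too, 2 higher and 4 lower in aged, summing to 34471 to 35073 CPM in aged and 34425 to 35577 CPM in young. Of 11 non-classical monocyte markers 8 were higher in aged (1830 to 1888 against 1466 to 1498 CPM summed), and of 9 classical markers 5 were lower (15909 to 15948 against 19958 to 19999 CPM). Of 17 immediate early and stress genes 13 were higher, summing to 4886 to 5027 CPM in aged and 2761 to 2787 CPM in young. Smaller lists gave 4 of 9 tested B-lineage genes higher (82.4 to 86.6 against 53.5 to 58.5 CPM summed over 11 genes), 4 of 11 dendritic (355 to 368 against 311 to 315 CPM), 3 of 9 tested macrophage (353 to 356 against 309 to 311 CPM over 10 genes), 1 of 9 erythroid (386 to 395 against 349 to 387 CPM), and 0 of 9 T and NK genes with edgeR (2 at an unadjusted p under 0.05, 0 with DESeq2 and limma-voom; 45.6 to 46.6 against 48.5 to 54.0 CPM). None of these lists had a gene at 0 in all 4 libraries. The part of cell composition or RNA state in the changes of autophagy genes was not tested, and in bulk RNA fewer cells of a type and less RNA per cell cannot be told apart.

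None of the 40 autophagy genes had an estimated change as large as 1.5-fold between aged and young libraries. In the quasi-likelihood test of edgeR, adjusted by Benjamini-Hochberg over all 12035 genes with a threshold of 0.05, 1 of the 40 genes rose in aged monocytes and 1 fell. The cargo receptor gene Sqstm1 rose by 1.20-fold and the lipid transfer gene Atg2b fell to 0.704 of its young level. Over all tested genes 2.87% were called higher and 2.89% lower, 5.77% together, so 2 of 40 is near the background. At an unadjusted p under 0.05 there were 11 of the 40 genes, 27.5%, against 21.1% of all tested genes. Aged and young libraries did not overlap for 21 of the 40, which is 52.5% against 51.5% of all tested genes. Of these, 13 were higher (25.9% of all tested genes were) and 8 lower (25.7% of all tested genes). The median log2 change was 0.028 over the 40 genes and -0.0044 over all tested genes, and the median size of a change was 0.12 against 0.15.

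Every one of the 40 genes had between 167 and 19110 counts in every library. Standard errors of the log2 change ran from 0.056 to 0.17, with a median of 0.092 against 0.12 over all tested genes. The 95% interval of the change lay within 1.5-fold in both directions for 38 of the 40 genes. Atg2b and Optn were the 2 genes whose interval reached beyond 1.5-fold. None of the 40 intervals reached beyond 2-fold.

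**Figure D1:**
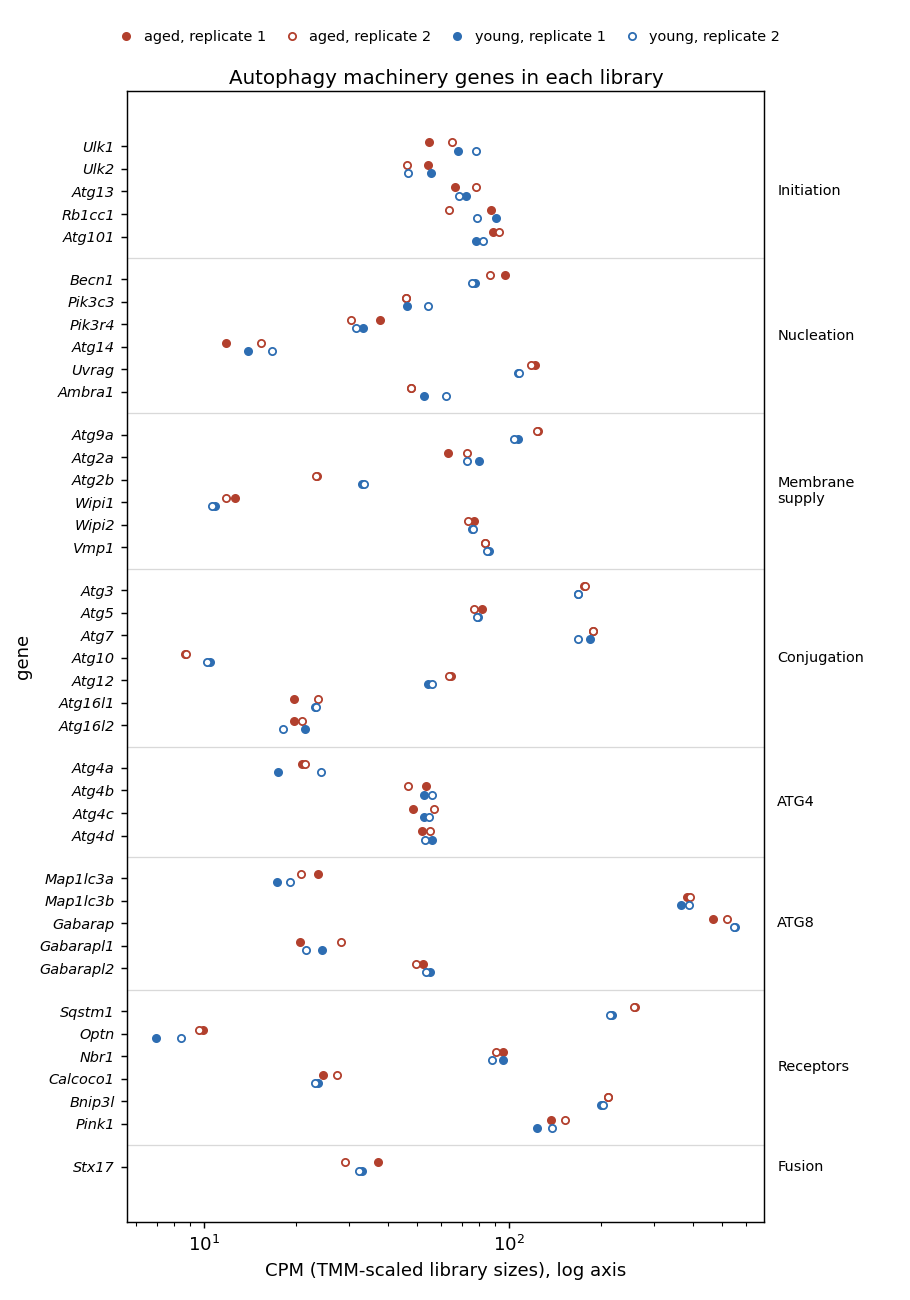
CPM of each of the 40 autophagy genes in each library on a log axis, grouped by role, with aged libraries above young ones and filled points for replicate 1. Levels span from 6.98 CPM for Optn to 553 CPM for Gabarap, and the 4 points of a gene lie close together next to that span.

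**Figure D2:**
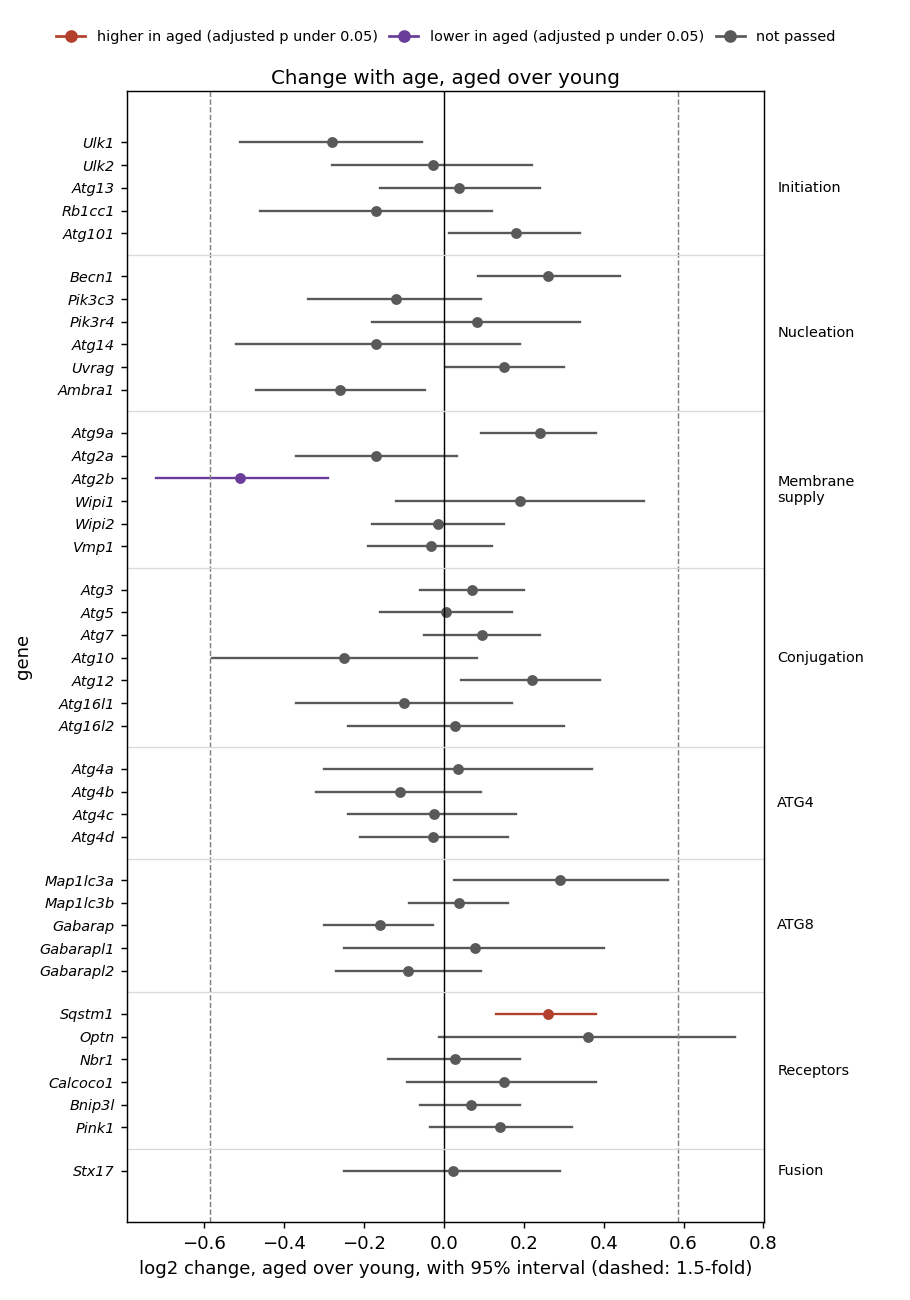
Log2 change of each gene (aged over young, n = 2 per group) with its 95% interval from the edgeR fit, and dashed lines at 1.5-fold. Sqstm1 (0.26) and Atg2b (-0.51) are the genes past the adjusted threshold, and the interval of Optn also crosses a dashed line.

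Sqstm1 encodes p62, the receptor that binds ubiquitin-tagged cargo and ATG8 proteins at once and is itself degraded by autophagy. Its level was 259 and 257 CPM in aged libraries, against 217 and 214 CPM in young libraries. Both aged libraries lay above both young ones, and the libraries of an age were within a few CPM of each other. The means were 258 ± 1.59 CPM in aged and 215 ± 1.79 CPM in young (SD, n = 2 each), a log2 change of 0.26 ± 0.056 (standard error; edgeR adjusted p = 0.0256; 95% interval 0.13 to 0.38). The gene lies on the minus strand of chromosome 11, from 50199366 to 50210827 (GRCm38), and 17.3% of its annotated exon length overlaps Mrnip on the other strand. With an adjusted p = 0.0531 without aged replicate 2, 0.179 without young replicate 1 and 0.141 without young replicate 2, the call did not hold in those fits, while the log2 change stayed between 0.25 and 0.27. With offsets for transcript length and GC content the log2 change of Sqstm1 was 0.18 and the call was lost too (edgeR adjusted p = 0.110).

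Atg2b encodes one of the paired lipid transfer proteins that channel phospholipid from the endoplasmic reticulum into the growing sac. It was measured at 23.4 and 23.3 CPM in aged and at 32.9 and 33.6 CPM in young libraries. The ages were further apart than the replicates, although 2 libraries per age give only a loose measure of spread. The means were 23.4 ± 0.0846 CPM in aged and 33.2 ± 0.519 CPM in young (SD, n = 2 each), a log2 change of -0.51 ± 0.098 (edgeR adjusted p = 0.0144; 95% interval -0.72 to -0.29). Atg2b lies on the minus strand of chromosome 12, from 105616136 to 105685211. The call was lost without young replicate 1 (adjusted p = 0.122) and without young replicate 2 (0.0914), at log2 changes of -0.52 and -0.49. Its longest transcript has 7546 bases, and long transcripts as a class were lower in aged libraries: of 1587 tested genes with a longest transcript over 6 kb, 129 were called lower and 22 higher, with a median log2 change of -0.13, against 166 higher and 57 lower and a median of 0.031 among 4892 genes of 2 to 4 kb. Sqstm1, whose longest transcript has 2673 bases, falls in that class of 2 to 4 kb. Genes under 2 kb (95 higher and 106 lower of 2721) and of 4 to 6 kb (58 higher and 54 lower of 2710) had calls nearer to balance, with medians of 0.0078 and -0.017. With the length and GC offsets, added after seeing the data, Atg2b gave -0.41 (edgeR adjusted p = 0.0323). What lies behind the length pattern, and its part in the changes of these 2 genes, was not tested.

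The promoters of these 2 genes are shown because they are the 2 that passed the adjusted threshold. Each is the RefSeq window from 250 bases before to 50 bases after the annotated start (GRCm38.p6), written 5′ to 3′ on the minus strand of the chromosome, where both genes lie. Capitals mark the GC box, GGGCGG on either strand.
Sqstm1, chr11:50210771-50211070: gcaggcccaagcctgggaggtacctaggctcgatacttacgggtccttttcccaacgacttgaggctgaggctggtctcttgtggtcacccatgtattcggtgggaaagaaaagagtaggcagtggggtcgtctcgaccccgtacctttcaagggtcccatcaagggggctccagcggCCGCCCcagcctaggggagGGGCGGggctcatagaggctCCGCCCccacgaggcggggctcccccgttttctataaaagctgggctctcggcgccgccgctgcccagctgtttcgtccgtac
Atg2b, chr12:105685192-105685491: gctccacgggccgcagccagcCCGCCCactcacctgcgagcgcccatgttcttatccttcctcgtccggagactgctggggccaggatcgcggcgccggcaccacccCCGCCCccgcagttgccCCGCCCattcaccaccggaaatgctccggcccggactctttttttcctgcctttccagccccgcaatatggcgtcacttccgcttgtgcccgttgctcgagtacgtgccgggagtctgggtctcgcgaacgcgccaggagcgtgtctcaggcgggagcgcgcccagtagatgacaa
The GC boxes of Sqstm1 begin 72, 53 and 33 bases before the start and those of Atg2b 229, 143 and 126 bases before it. A GC box, a general promoter element bound by SP factors, was found in the windows of 23 of the 33 genes with an entry in the table (69.7%), against 38.2% of all genes in it. The 27025 genes of that comparison, used for every motif here, include genes below the low-count filter. The windows were not matched for GC content. The E-box CACGTG, which TFEB, MYC and clock factors bind, was in 4 of the 33 (12.1%), those of Atg14, Atg3, Atg5 and Atg7, against 8.09% of all genes. Its longer form TCACGTGA, close to the element of lysosomal genes, was in the window of Atg3 alone (3.03%, against 1.12% of all genes). The antioxidant response core TGACNNNGC was in the windows of Ulk2, Atg13, Vmp1 and Map1lc3b, 12.1% against 14%. The CCAAT box, searched as CCAAT, was in 8 (24.2% against 41.1%), and the AP-1 element TGANTCA (8.97% of all genes) and the FOXO element TGTTTAC (4.05%) were in none of the 33. All motifs were searched on both strands, CACGTG lies inside TCACGTGA, and these windows are short, so the counts describe letters in them and no binding.

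**Figure D3:**
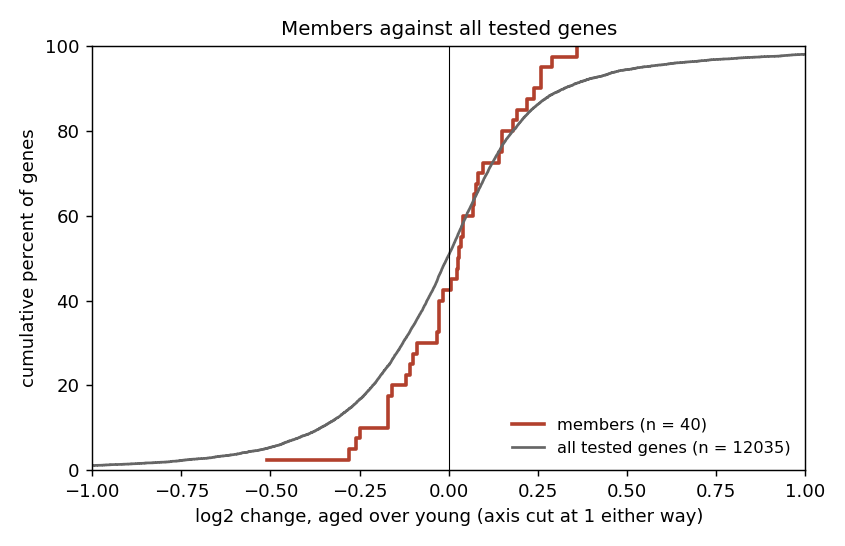
Cumulative percent of genes by log2 change (aged over young) for the 40 autophagy genes and for all 12035 tested genes, with the axis ending at a log2 change of 1 in each direction. The curve of the 40 is the steeper one and ends at 0.36, while the tails of the other curve run past the axis.

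The ULK1 complex, the kinase that starts the process when nutrients fall, had no member past the threshold among 5. DESeq2 and limma-voom called 0 of the 5 too. Before adjustment 2 had an edgeR p under 0.05, the kinase gene Ulk1 and Atg101, whose product stabilises the ATG13 subunit. Over all tested genes 21.1% reached that level. Ulk1 was at 54.8 and 65.2 CPM in aged and 68.1 and 78.0 CPM in young libraries. The aged libraries lay below the young ones, but replicates of an age were further apart than the nearest libraries of different ages (log2 change -0.28 ± 0.10, edgeR adjusted p = 0.145). Atg101, by contrast, was the most abundant of the 5 per length, at 88.5 and 92.9 CPM in aged against 78.1 and 82.5 CPM in young (0.18 ± 0.074, adjusted p = 0.203). Its level per kilobase of annotated exon was 56.8 CPM in aged and 50.3 CPM in young, against 9.25 and 11.3 CPM per kb for Ulk1. Ulk2, the paralogue of Ulk1 (-0.028 ± 0.11), the adaptor Atg13 (0.039 ± 0.090) and the scaffold Rb1cc1 (-0.17 ± 0.13) had larger p-values. Rb1cc1 had 87.4 and 63.4 CPM in aged and 90.5 and 78.7 CPM in young, and was called lower only in the fit without aged replicate 1 (-0.42, edgeR adjusted p = 0.0282).

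Genes of the class III PI3-kinase complex, which marks the site of the sac with a phosphorylated lipid, did not pass either, 0 of 6 with edgeR, DESeq2 or limma-voom. Before adjustment 3 of the 6 had a p under 0.05, a level that 21.1% of all tested genes reached. Becn1, the beclin scaffold, was at 97.3 and 86.6 CPM in aged and 77.5 and 75.9 CPM in young, with no overlap (0.26 ± 0.080, adjusted p = 0.0854). Without aged replicate 2 Becn1 passed, at 0.34 (edgeR adjusted p = 0.0476). A part of its annotated exons, 43.9% of their length, overlaps Cntd1 on the other strand, and the strand setting of the counting is not given in the sources used here. Uvrag, which replaces ATG14 in the form of the complex that acts on endosomes, was the most abundant of the 6 in CPM and, as a mean over all libraries, in CPM per kb (12.6 against 11.9 for Becn1, whose libraries overlap with it), at 122 and 118 CPM in aged against 107 and 108 CPM in young (0.15 ± 0.066, adjusted p = 0.219). Ambra1, a regulator that holds beclin at the cytoskeleton, moved the other way, at 47.8 and 47.9 CPM in aged and 52.8 and 62.0 CPM in young (-0.26 ± 0.095, adjusted p = 0.151). For the lipid kinase itself, Pik3c3, the log2 change was -0.12 ± 0.097, for its regulatory subunit Pik3r4 0.082 ± 0.12, and for Atg14, the subunit that directs it to autophagy, -0.17 ± 0.16.

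Among the 6 genes that feed and mark the membrane, Atg2b was the 1 that passed. Atg9a encodes the scramblase whose vesicles seed the membrane, and it came closest to the threshold among the other members of the 40. It was at 125 and 124 CPM in aged and 107 and 104 CPM in young libraries, and the aged pair lay above the young pair (0.24 ± 0.065, edgeR adjusted p = 0.0617). Its annotated exons share 31.8% of their length with Gm29253, a transcript on the same strand, so part of its reads may have been left uncounted in all libraries. Atg2a, the paralogue of Atg2b, was at 63.1 and 73.0 CPM in aged and 79.6 and 73.0 CPM in young (-0.17 ± 0.091, adjusted p = 0.324). Its mean per kilobase was 8.85 CPM in aged against 9.92 CPM in young, against 1.74 and 2.47 CPM per kb for Atg2b. Atg2b thus made up 17.5% and 15.4% of the ATG2 counts per kilobase in aged and 19.1% and 20.8% in young libraries. The most abundant gene of the 6 per length was Vmp1, an endoplasmic reticulum scramblase that works with the ATG2 proteins, at 83.5 and 83.7 CPM in aged and 86.0 and 85.0 CPM in young (-0.033 ± 0.070). Mir21a, the microRNA gene that lies inside Vmp1, covers 2.38% of its annotated exon length. The lipid-binding effectors Wipi1 (0.19 ± 0.14) and Wipi2 (-0.016 ± 0.074) did not pass.

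None of the 7 conjugation genes, which attach ATG8 proteins to the membrane, passed with edgeR, DESeq2 or limma-voom. At an unadjusted edgeR p under 0.05 there was 1 of the 7, against 21.1% of all tested genes. Atg7, the activating enzyme, was at 189 and 188 CPM in aged and 185 and 169 CPM in young (0.095 ± 0.065). Atg3, which hands ATG8 proteins to lipid, was the most abundant of the 7 per length, at 176 and 178 CPM in aged and 169 and 168 CPM in young (0.071 ± 0.059, 95% interval -0.059 to 0.20). The libraries of both genes did not overlap between ages, by small margins. Atg5, the conjugation partner of ATG12, was at 81.3 and 77.1 CPM in aged against 79.0 and 78.8 CPM in young (0.0049 ± 0.073), with the young libraries between the aged ones. Atg12, the ubiquitin-like protein itself, was at 64.6 and 63.6 CPM in aged and 54.4 and 56.1 CPM in young (0.22 ± 0.078, edgeR adjusted p = 0.145). Atg10, the enzyme that joins ATG12 to ATG5, was low, at 8.69 and 8.74 CPM in aged and 10.5 and 10.2 CPM in young (-0.25 ± 0.15). The adaptors Atg16l1 (-0.10 ± 0.12) and Atg16l2 (0.029 ± 0.12) had similar counts, at 19.7 to 23.7 CPM in aged and 18.2 to 23.3 CPM in young over both genes. Atg16l1 held 48.3% of the pair per kilobase in aged and 50.9% in young with the union of all exons as the length, and 64.6% and 66.9% with the longest transcript, so their order depends on the gene model.

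The 4 ATG4 proteases, which trim ATG8 proteins before use and free them afterwards, had the narrowest range of changes among the role groups with more than 1 gene, from -0.11 for Atg4b to 0.035 for Atg4a. None of the 4 passed or had an unadjusted edgeR p under 0.05, and DESeq2 and limma-voom called 0. Atg4c was the most abundant per length, at 48.5 and 57.0 CPM in aged and 52.8 and 54.6 CPM in young, and held 42.4% of the family per kilobase in aged and 42.3% in young. Atg4b, the protease known as the most active in mammals, held 16.3% in aged and 17.3% in young, and Atg4d 19.8% in both. With the longest transcript as the length Atg4b held 25.4% in aged and 26.7% in young, above Atg4d at 19.1% and 18.9%, so the order below Atg4c depends on the gene model. Atg4a, on the X chromosome, differed most between replicates as a ratio, with 17.5 and 24.2 CPM in young around 20.9 and 21.4 CPM in aged libraries.

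ATG8 family transcripts held the highest summed level of the role groups, 948 to 1009 CPM in aged and 1017 to 1032 CPM in young. None of the 5 passed with edgeR, DESeq2 or limma-voom. An unadjusted edgeR p under 0.05 was found for 2 of the 5, a level that 21.1% of all tested genes reached. Gabarap was at 467 and 517 CPM in aged and 553 and 548 CPM in young, which is 267 CPM per kb in aged and 299 CPM per kb in young, the highest of the 40 genes on both scales. Both aged libraries lay below both young ones, and the change did not pass (-0.16 ± 0.061, edgeR adjusted p = 0.155). Map1lc3b, the LC3 form used as the standard marker of autophagy, was at 384 and 393 CPM in aged and 367 and 390 CPM in young, with overlap between the ages (0.039 ± 0.057, 95% interval -0.087 to 0.16). Map1lc3a was far lower, at 23.7 and 20.8 CPM in aged and 17.4 and 19.1 CPM in young (0.29 ± 0.12, adjusted p = 0.197). Gabarapl1 (0.077 ± 0.15) and Gabarapl2 (-0.090 ± 0.083) gave 24.4 and 51.0 CPM on average in aged and 23.0 and 54.3 CPM in young.

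Within the family, Gabarap made up 70.9% and 72.7% of the counts per kilobase in aged and 75.1% and 74.5% in young libraries. Map1lc3b followed with 14.3% and 13.6% in aged and 12.2% and 13% in young, and Map1lc3a with 5.61% and 4.58% in aged and 3.69% and 4.06% in young. Shares of these 3 genes did not overlap between the ages, and those of Gabarapl1 and Gabarapl2 overlapped. Gabarap was at 71.8% on average in aged and 74.8% in young. Shares are parts of a whole, so a lower share of Gabarap by itself raises the others, and the 3 are not independent. In CPM, Map1lc3b overlapped between the ages (384 and 393 in aged, 367 and 390 in young), while Gabarap and Map1lc3a did not. Libraries did not overlap in CPM for 51.5% of all tested genes. Shares are described without a test, because an exact permutation test of 2 libraries against 2 cannot give a two-sided p below 0.33. In the WIPI pair Wipi1 held 28.1% and 27.8% in aged and 25.6% and 24.9% in young. In the ULK pair the share of Ulk1 was 48.2% and 56.5% in aged and 53.0% and 60.7% in young, with overlap.

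**Figure D4:**
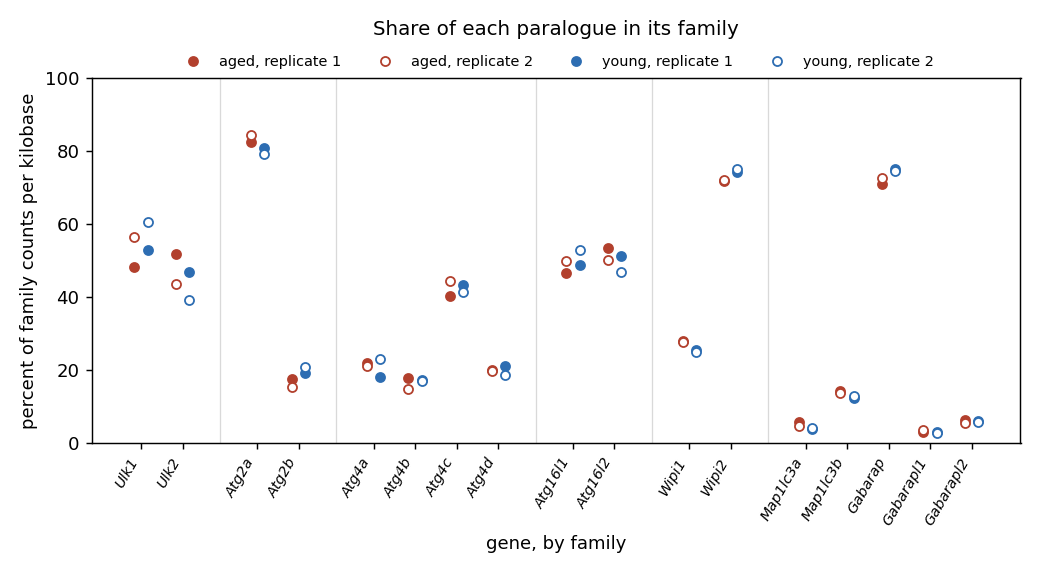
Percent of each family's counts per kilobase of annotated exon held by each paralogue, per library, with aged libraries left of young ones. Gabarap, Atg2a and Wipi2 dominate their families in all 4 libraries, and the ages differ by at most 4.5 percentage points on average.

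Cargo receptors and mitophagy genes all had positive log2 changes, from 0.027 to 0.36 over 6 genes, of which Sqstm1 passed. Changes were positive in 57.5% of the 40 genes and in 49.3% of all tested genes. The 95% intervals of the 5 genes that did not pass all included 0. Optn, the optineurin receptor that draws damaged mitochondria into autophagy, had the largest positive change of the 40 at a low level, 9.89 and 9.66 CPM in aged and 6.98 and 8.38 CPM in young. It did not pass (0.36 ± 0.17, edgeR adjusted p = 0.252), and its 95% interval ran from -0.013 to 0.73. Nbr1, a receptor related to p62, was at 95.9 and 90.9 CPM in aged and 95.3 and 87.8 CPM in young (0.027 ± 0.075). For the mitochondrial receptor gene Bnip3l, also called Nix, the values were 211 and 212 CPM in aged and 200 and 203 CPM in young (0.067 ± 0.057). Pink1, the kinase that flags damaged mitochondria, was at 137 and 153 CPM in aged and 124 and 138 CPM in young, with overlap (0.14 ± 0.079). Calcoco1, a receptor for parts of the endoplasmic reticulum and Golgi, gave 0.15 ± 0.11. Summed over the 6, the level was 736 to 748 CPM in aged and 667 to 675 CPM in young, of which Sqstm1 alone was 258 and 215 CPM. Stx17, the SNARE that fuses the finished sac with the lysosome, was at 37.2 and 28.9 CPM in aged around 32.9 and 32.3 CPM in young (0.023 ± 0.12).

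Over 60 further genes of the pathway, listed by role, 59 were tested, 0 rose with edgeR (0 with DESeq2 and 1 with limma-voom) and 3 fell with edgeR, 5.08% against 5.77% of all tested genes, with a median log2 change of 0.0066. At an unadjusted p under 0.05 there were 14 of the 59, 23.7% against 21.1% of all tested genes. Among 13 regulators of the TFEB and FOXO transcription factors, the folliculin partners Fnip1 and Fnip2 fell, none rose, and 7 had an unadjusted p under 0.05. With folliculin they act on Rag GTPases at the lysosome and so on the phosphorylation of TFEB. Fnip1 was at 43.8 and 43.9 CPM in aged and 58.8 and 62.1 CPM in young (-0.46 ± 0.082, edgeR adjusted p = 0.0101). Fnip2 was at 24.5 and 29.7 CPM in aged and 35.7 and 38.5 CPM in young (-0.45 ± 0.11, adjusted p = 0.0453). Fnip1 was not called without young replicate 1 (0.0738) or young replicate 2 (0.0838), and Fnip2 kept its call only without aged replicate 2 among the 4 fits that left out a library (0.142 to 0.213 in the others), and lost it with upper-quartile scaling too (0.0515). Their longest transcripts have 6255 and 7299 bases, which puts both in the class over 6 kb described above; with the length and GC offsets Fnip1 gave -0.33 (edgeR adjusted p = 0.0455) and Fnip2 -0.36 (0.110). Outside the naming rule, and seen after their values were known, other members of this list had positive changes that did not pass. Tfeb, the main transcription factor of lysosomal and autophagy genes, was at 149 and 159 CPM in aged and 133 and 125 CPM in young, with no overlap (0.25 ± 0.068, edgeR adjusted p = 0.0565). Its relative Tfe3 gave 0.17 ± 0.065 (adjusted p = 0.156) and Zkscan3, a repressor of autophagy genes, 0.27 ± 0.11 (0.184). Folliculin itself, Flcn (-0.20 ± 0.084, adjusted p = 0.218), and Tfec (-0.26 ± 0.11, 0.230) were the other genes of the 7.

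Of 14 tested receptors and adaptors beyond the 40, Ccpg1 fell and none rose. It encodes a receptor for the endoplasmic reticulum and was low, at 5.74 and 5.34 CPM in aged and 10.8 and 9.03 CPM in young (-0.84 ± 0.18, edgeR adjusted p = 0.0223). Only the fit without aged replicate 1 (0.0251) kept that call among the 4 that left out a library (0.0527 to 0.257 in the others). None of 15 further initiation and membrane genes passed with edgeR, 3 of them at an unadjusted p under 0.05, and DESeq2 called 2 and limma-voom 3. The smallest p was that of Trp53inp2, a nuclear protein that binds LC3, at 53.0 and 49.1 CPM in aged and 40.2 and 40.7 CPM in young (0.33 ± 0.087, edgeR adjusted p = 0.0511; 0.0441 with limma-voom). Outside the naming rule, the other calls were lower values of Epg5, a tether of the sac to the lysosome, and Trp53inp1, a relative of Trp53inp2. Epg5 was at 12.7 and 21.8 CPM in aged and 28.4 and 28.3 CPM in young (edgeR -0.72 ± 0.20, adjusted p = 0.0586; 0.0139 with DESeq2 and 0.0326 with limma-voom). Trp53inp1 was at 150 and 132 CPM in aged and 176 and 166 CPM in young (edgeR -0.28 ± 0.075, adjusted p = 0.0543; 0.0449 with DESeq2 and 0.0444 with limma-voom). Nor did any of 17 genes of tethering and fusion pass, where 1 had an unadjusted p under 0.05, DESeq2 and limma-voom called 0 and the median log2 change was -0.031. That gene was Snap29, the SNARE that pairs with Stx17, at 33.3 and 32.8 CPM in aged and 38.2 and 38.6 CPM in young (-0.22 ± 0.090, edgeR adjusted p = 0.201).

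Levels differed far more between genes than between ages. Per kilobase of annotated exon the 40 genes ran from 2.10 CPM for Atg2b to 283 CPM for Gabarap as means over all libraries, with a median of 10.6 against 5.33 CPM per kb over 11917 tested genes with a length, and 32 of the 40 were above that median. After Gabarap came Sqstm1 (70.5 CPM per kb), Atg3 (54.7), Atg101 and Bnip3l (both 53.5), Pink1 (51.6) and Map1lc3b (51.0), where Sqstm1 lay above Atg3 in every library and from Atg3 on each gene overlapped the next in its libraries. At the low end, Atg2b, Optn (2.33), Atg16l1 (2.34), Atg16l2 (2.37) and Wipi1 (2.60) likewise each overlapped the next. Below Gabarap these orders depend on the gene model. Map1lc3b has 7517 bases of annotated exon but a longest transcript of 4138 bases, and Atg16l1 has 9628 against 3751. Summed over the 40, the level was 3554 and 3605 CPM in aged and 3524 and 3536 CPM in young libraries.

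**Figure D5:**
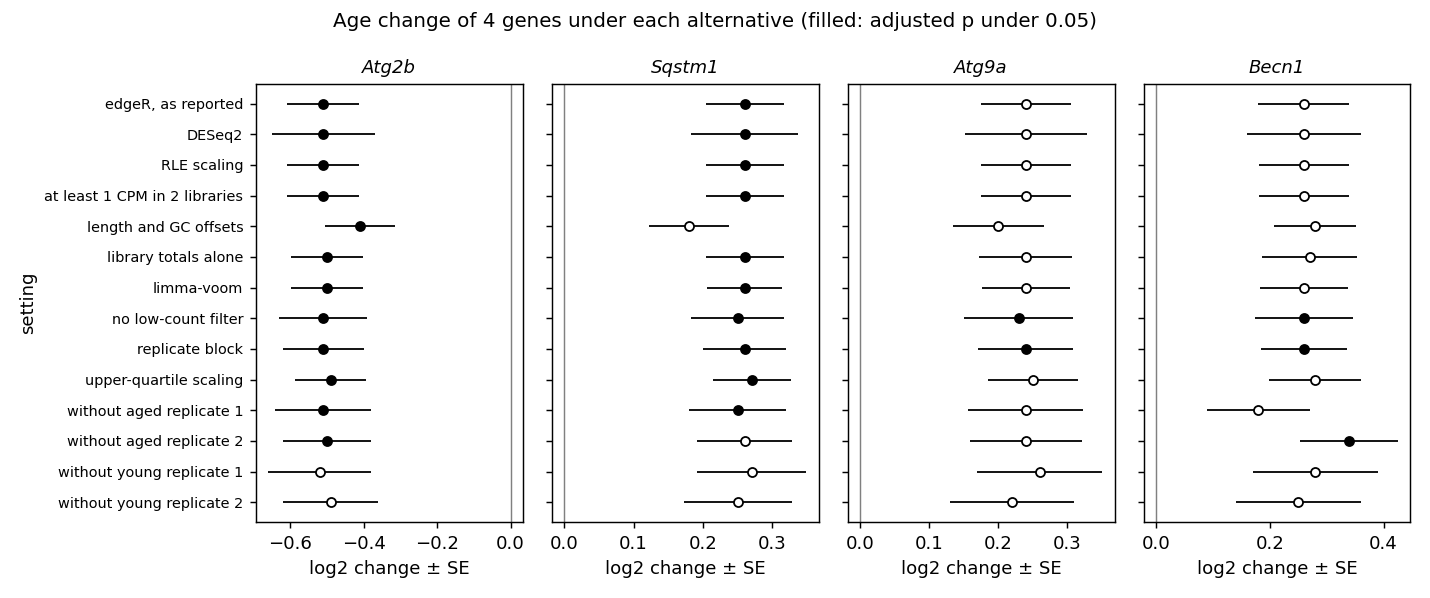
Log2 change (aged over young) with its standard error for Atg2b, Sqstm1, Atg9a and Becn1 under each setting, with filled points where the adjusted p was under 0.05. The sign of each gene is the same in every setting shown, and the calls of Atg2b and Sqstm1 are lost when either young library is left out. Sqstm1 also loses its call without aged replicate 2 and with the length and GC offsets.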

How the data were processed

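Libraries were strand-specific (dUTP) and made after oligo-dT selection of mRNA, per the labels' protocols. The authors deposited raw, unnormalized counts by gene symbol in a separate table for each library. Tools named in the submitters' processing notes, without their roles, are STAR 2.5.3, cutadapt, DESeq2 and HTSeq, with mm10 as the build. Neither the annotation nor the strand setting is given in the sources used here.

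Genes were kept by filterByExpr (minimum count 10, minimum total 15), scaled with TMM factors and tested for aged against young in edgeR 4.0.16, quasi-likelihood F-test (R 4.3.3), two-sided, over 12035 genes. The standard error is the size of the log2 change divided by the square root of F, and 95% intervals use the moderated degrees of freedom. CPM per kb uses the union of exons in GENCODE M21 (GRCm38). Library totals ran from 20159129 to 34278754 counts. Replicates differed beyond sampling noise (chi-square per degree of freedom 9.79 in aged and 12.7 in young), so none was counted as a duplicate. The procedure was tested on simulated data.

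The 40 genes, the lists of further pathway genes and the markers were chosen with earlier results of these data known. The naming rule took the genes past the threshold, the 4 per direction with the next smallest p, and the most abundant per length of each role; per-library values of some other members were added after their values were seen. 1 gene of those lists is not reported here. From each list of further genes come those past the threshold, otherwise the 1 with the smallest p. Alternatives were RLE, upper-quartile and library-total scaling, 2 other filters (no filter; at least 1 CPM in 2 libraries), DESeq2 1.42.0, limma-voom (limma 3.58.1), the replicate number as a block, each library left out, and, for shares, the longest transcript as length. Length and GC offsets (natural splines) were added after seeing the data.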

Additional observations from a re-analysis of the deposited data

How the results depend on the processing

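Over the 45 named genes, 585 log2 changes were recomputed: 529 kept direction and side of the threshold, 16 lost the call, 15 gained it and 25 changed sign, the last in 16 genes with a log2 change of at most 0.17 in size. The count of autophagy genes higher in aged, 1 as reported, was 3 with no low-count filter and 0 with the length and GC offsets, and the count of lower ones, also 1, was 2 with no filter. With a library left out the counts ranged from 0 to 1 higher and from 0 to 2 lower, at 0 and 0 without either young library. Over all tested genes, 346 higher and 348 lower became 606 and 793 with no filter, and ranged from 99 to 331 higher and from 62 to 435 lower with a library left out, lowest without young replicate 1. Leaving out a library leaves 1 of its age, which is then assumed to vary like the other age. The cause of these shifts was not tested.

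The labels share replicate numbers between the ages but do not say that a number marks a shared animal or day, and deviations of same-numbered libraries correlated at 0.0937 over 12035 genes. With the replicate number as a block, 801 of 12035 genes were higher and 1016 lower. Of the 40 autophagy genes 3 were then higher (Sqstm1, Atg9a, Becn1) and 4 lower (Atg2b, Ulk1, Ambra1, Gabarap). The block takes up a further coefficient of the fit. Few residual degrees of freedom are left per gene, and these calls lean on spread pooled over genes.

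With the length and GC offsets the sign changed for Ulk2 (0.027), Atg13 (-0.0088), Wipi2 (0.012), Atg5 (-0.034) and Atg4d (0.012). With a library left out the log2 change crossed 0 for Ulk2 (-0.15 to 0.12), Atg13 (-0.079 to 0.15), Rb1cc1 (-0.42 to 0.044), Pik3r4 (-0.087 to 0.23), Atg14 (-0.37 to 0.023), Wipi2 (-0.047 to 0.018), Atg5 (-0.031 to 0.042), Atg16l1 (-0.24 to 0.032), Atg16l2 (-0.078 to 0.16), Atg4a (-0.19 to 0.27), Atg4c (-0.15 to 0.089), Atg4d (-0.066 to 0.014), Map1lc3b (-0.0021 to 0.082), Gabarapl1 (-0.16 to 0.29), Nbr1 (-0.029 to 0.092) and Stx17 (-0.17 to 0.19). With the longest transcript as the length, the age differences of Wipi1 (2.16 percentage points) and Wipi2 (-2.16) moved by more than the replicate SD, and the other 15 of 17 paralogue shares did not.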
